A study of Mus musculus with 8 samples.

Results

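The genes described here are the potassium channel genes of cultured mouse hippocampal neurons, followed over 300 min of exposure to bicuculline. They were chosen as the genes whose symbol begins with Kcn followed by letters and a number. Each was represented by its transcript cluster (the group of array probes for 1 transcription unit) with the highest mean, and genes whose mean over the 8 arrays exceeded 4.5 on the log2 scale were kept. The symbol fitted 91 of 19938 measured genes, and 72 of these exceeded 4.5. The choice therefore used the level averaged over all arrays, and not a difference between times. For 68 of the 72 genes the mean exceeded 4.5 at every time, and the exceptions were Kcna10, Kcnj8, Kcnk6 and Kcnj14. Of the 72 genes, 58 encode channel or silent alpha subunits of the pore complex and 11 encode accessory subunits. The other 3, Kcnd3os, Kcnmb4os1 and Kcnmb4os2, are long noncoding RNA genes named after a neighbouring channel gene. They fitted the symbol rule and are counted with the 72, but they are no subunits.

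All 8 arrays were Affymetrix Mouse Gene ST 1.0 arrays hybridised with total RNA of hippocampal neurons. The neurons were prepared from embryos of ICR mice, an outbred strain, at E17.5 (days of embryonic development) and were kept in culture for 10 days. The stimulus was 50 µM bicuculline, an antagonist of GABA-A receptors that releases networks from inhibition. RNA was taken after 0, 30, 180 or 300 min of exposure, from 2 biological replicates per time point, so the 0 min group stands for no exposure. The labels name no vehicle-treated culture, no sex and no sorting of cells. Each difference is therefore one between lengths of exposure to the drug, 0 min included.

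Potassium channels let potassium leave the neuron and so set its resting potential, end its action potentials and limit repetitive firing. Voltage-gated Kv channels are tetramers of alpha subunits, joined by accessory beta or KChIP proteins. Calcium-activated BK and SK channels follow spikes, inward rectifiers (Kir) and two-pore-domain (K2P) channels carry the current at rest, and Kv7 channels carry the M-current that damps bursts. In hippocampal neurons the A-type current of Kv4 channels restrains dendrites, and Kv1 channels sit mainly in axons and terminals.

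Of 8 genes of a panel of neuronal activity genes, 6 passed the test as higher at 30 than at 0 min, among them Npas4 (log2 change 3.88 ± 0.14 SE) and Fos (2.29 ± 0.15 SE). Of 46 measured markers of 9 cell types, 1 passed in any comparison: Slc17a6, a vesicular glutamate transporter gene of excitatory neurons, was higher by 0.38 at 180 and 300 min together than at 0 and 30 min together (limma, adjusted p = 0.0406). The summed signal of 6 neuronal markers lay, on the log2 scale, between 12.88 and 13.02 at 0 min, 12.99 and 13.01 at 30 min, 12.8 and 12.89 at 180 min and 12.9 and 12.96 at 300 min. That of 7 astrocyte markers lay between 9.81 and 10.05 at 0 min, 9.78 and 9.88 at 30 min, 9.65 and 9.78 at 180 min and 9.58 and 9.8 at 300 min. The arrays of 180 min thus lay at or below those of 30 min in both sums. The sum of 6 GABAergic markers went the other way, with 11.35 to 11.39 at 30 min and 11.52 to 11.56 at 180 min. Among the astrocyte markers, Gfap, Aqp4 and Slc1a3 had slightly higher means at 180 than at 30 min. Slc1a2, Aldh1l1, Gja1 and Aldoc had lower ones. The part of these shifts in the results below was not tested. The astrocyte genes Gfap (mean signal 6.25) and Gja1 (7) were above the background of the olfactory receptor genes, whose 95th percentile was 4.46. Of the microglial markers 4 of 6 had a mean above 4.5, among them C1qa (5.88), Aif1 (5.13) and Cx3cr1 (5.07), while P2ry12 (3.75) and Itgam (4.42) did not. Of the endothelial and mural markers 3 of 6 did, Cldn5 (5.08), Kdr (5.05) and Pdgfrb (5.03). RNA came from whole cultures, so fewer cells of a type and less RNA per cell cannot be told apart.

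Promoter sequence is shown for 3 genes to illustrate the motif search described below. Kcna4 passed the test described below, Kcnq5 came closest to it among the genes with lower signal, and Kcnab2, a Kv beta gene, holds 2 copies of a searched motif. Each window covers the 250 bases before an annotated RefSeq start (GRCm38.p6) that lies outside the gene's own transcribed span. The Kcna4 window is chr2:107290339-107290588 on the plus strand, the Kcnq5 window is chr1:21962651-21962900 on the minus strand and the Kcnab2 window is chr4:152477550-152477799 on the minus strand. They are written 5′ to 3′, and capitals mark the site TGACG, here read on the opposite strand as CGTCA. The Kcna4 and Kcnq5 windows shown hold none of the motifs searched. The Kcnab2 window was picked for its 2 copies, and the other windows of that gene hold none of the motifs. Any part of these letters in the signals was not tested.
Kcna4: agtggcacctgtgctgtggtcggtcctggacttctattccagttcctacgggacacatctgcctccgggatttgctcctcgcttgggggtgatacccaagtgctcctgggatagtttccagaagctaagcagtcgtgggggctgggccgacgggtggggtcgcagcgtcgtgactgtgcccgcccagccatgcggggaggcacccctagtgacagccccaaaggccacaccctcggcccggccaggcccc
Kcnq5: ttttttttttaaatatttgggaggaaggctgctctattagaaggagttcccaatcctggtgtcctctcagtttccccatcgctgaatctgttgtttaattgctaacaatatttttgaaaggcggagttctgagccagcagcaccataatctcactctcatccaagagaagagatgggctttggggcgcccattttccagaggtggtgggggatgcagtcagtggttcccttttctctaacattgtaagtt
Kcnab2: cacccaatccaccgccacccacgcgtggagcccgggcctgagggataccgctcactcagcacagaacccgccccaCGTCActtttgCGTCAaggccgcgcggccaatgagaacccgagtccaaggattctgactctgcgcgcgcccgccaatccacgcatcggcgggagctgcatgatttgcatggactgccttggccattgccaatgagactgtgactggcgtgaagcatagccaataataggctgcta

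RefSeq gave 73 promoter windows for 53 of the 72 genes, and Kcna1 is among the 19 without an entry. Both strands were searched for 4 motifs of activity-regulated factors: the full cyclic AMP response element TGACGTCA, its core TGACG (which the full element contains), the AP-1 site TGANTCA and the EGR site GCGTGGGCG. The core was found in 10 of the 73 windows (13.7%), against 17.8% of all 32851 windows in the table. The AP-1 site was found in 3 (4.11%, against 6.75%), in windows of Kcnip3, Kcnip4 and Kcnk2. The full element and the EGR site were in none of the 73, and in 1.55% and 0.536% of all windows. A match is only a run of letters in a window of this length, and several windows share a gene.

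At the level of single time points, no potassium channel gene passed the test. Of the 72 genes, 0 were called at 30, at 180 or at 300 min against 0 min (limma, adjusted p under 0.05), where 0.0953%, 0.331% and 0.286% of all 19938 genes were called. At an unadjusted p under 0.05 the counts were 5, 12 and 16 of 72 genes (6.94%, 16.7% and 22.2%). The shares were 5.11%, 12.8% and 8.96% of all genes, and 4.59%, 14.2% and 10.3% of the 13407 genes with a mean above 4.5. At 180 min 5 of the 12 were higher and 7 lower (6.94% and 9.72% of the 72). The matching shares were 5.71% and 7.07% of all genes, and 4.54% and 9.64% of those above 4.5. At 300 min 5 of the 16 were higher and 11 lower (6.94% and 15.3% of the 72). Here the shares were 4.25% and 4.71% of all genes, and 4.32% and 5.98% of those above 4.5. The smallest adjusted p among the 72 was 0.819 at 30 min, 0.115 at 180 min and 0.119 at 300 min. Comparisons of 180 with 30 min and of 300 with 180 min also called 0 of them, where 0.502% and 0% of all genes were called, with 14 and 3 of the 72 at an unadjusted p under 0.05 (10.5% and 5.72% of all genes). Of the 14, 3 were higher and 11 lower (4.82% and 5.64% of all genes, and 4.8% and 7.27% of those above 4.5). A test for any difference among the 4 times called 0 of 72 genes, where 0.813% of all genes were called. In it 18 of the 72 had an unadjusted p under 0.05 (25%, against 11% of all genes and 12.6% of those above 4.5).

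The design could bound these differences. For all 72 genes the 95% confidence interval of each difference, unadjusted, lay within a 2-fold change either way, and within 1.5-fold for 69 genes at 30 min, 62 at 180 min and 61 at 300 min. The median distance from the estimate to the end of its interval was 0.28 on the log2 scale. The widest differences from 0 min were 0.57 for Kcna1 at 300 min and −0.51 for Kcnv1 at 180 min.

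**Figure D1:**
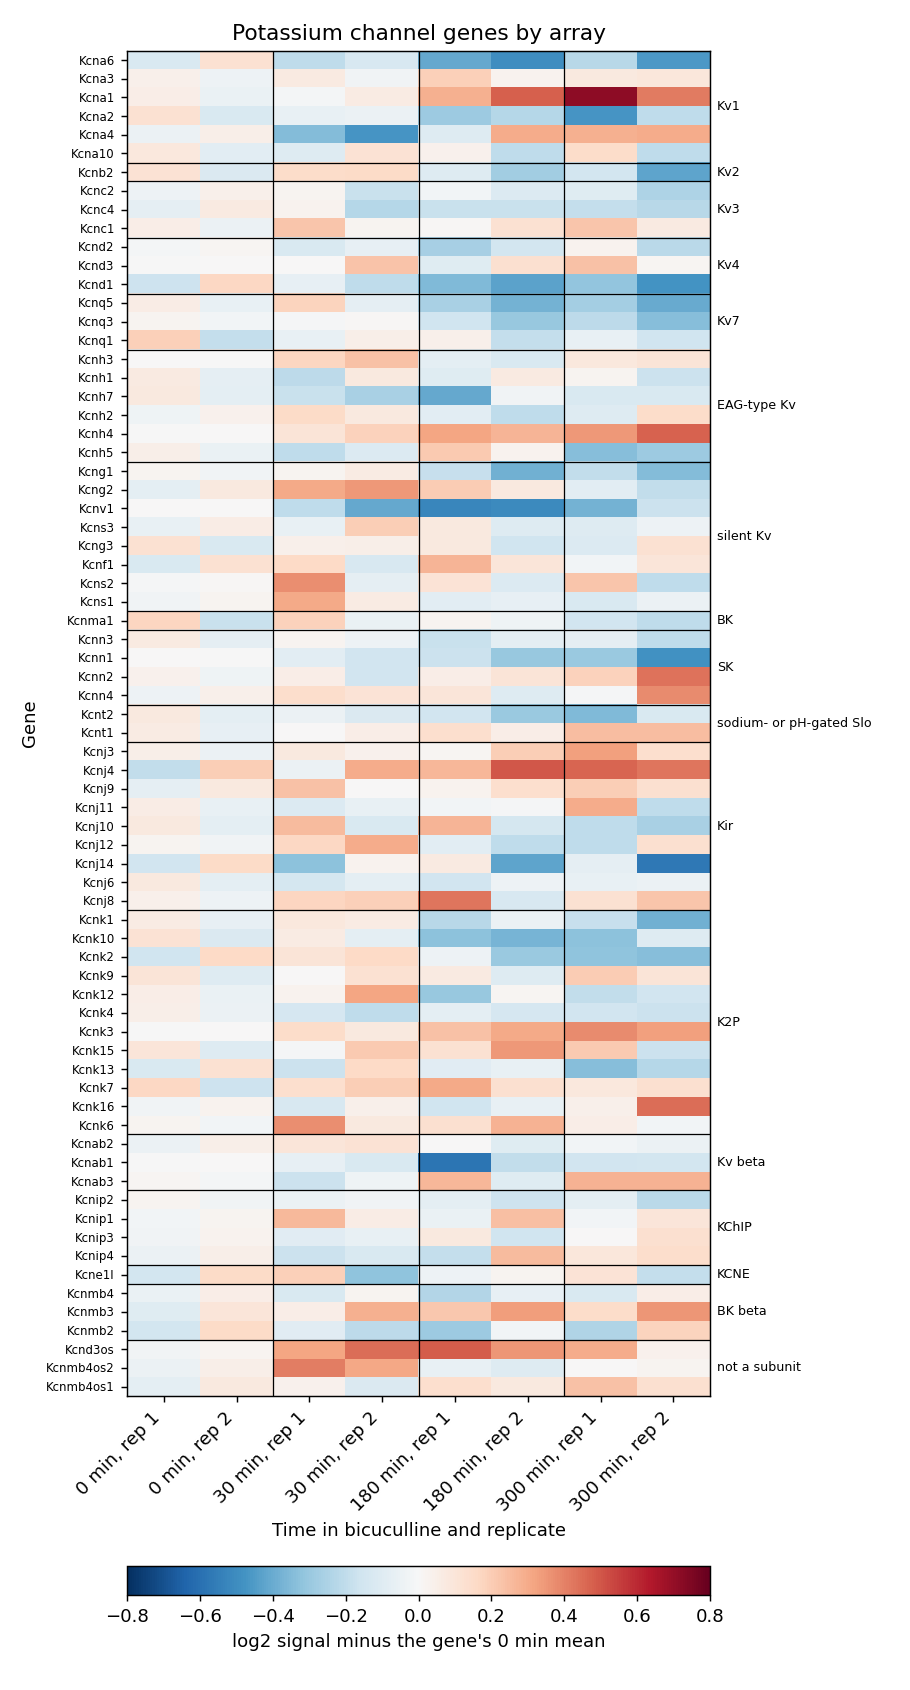
Heat map of the 72 genes (rows, grouped by channel family and ordered by mean signal within it) on the 8 arrays (columns, by time and replicate), coloured by the log2 signal minus the mean of that gene's 0 min arrays. Most cells are pale, and the darkest red cell is Kcna1 on replicate 1 of 300 min, where its signal was 7.6 against a 0 min mean of 6.88.

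Pooling the times gave 4 arrays against 4: the mean of 180 and 300 min was set against the mean of 0 and 30 min. In this comparison of late with early times Kcna1 and Kcna4, both Kv1 alpha subunit genes, rose, and no potassium channel gene fell (limma, adjusted p under 0.05). These are 2 of 72 genes, or 2.78%, where 2.22% of all genes were called (1.2% higher and 1.01% lower), so the share of calls was close to the background. At an unadjusted p under 0.05, 24 of the 72 genes differed (33.3%, against 14.3% of all genes and 17.6% of the 13407 genes with a mean above 4.5). Of the 24, 17 were lower (23.6% of the 72, against 8% of all genes and 10.8% of those above 4.5). The other 7 were higher (9.72%, against 6.32% and 6.74%). Without the 3 noncoding genes the counts were 16 lower and 7 higher of 69, and the same 2 genes were called. The count of 17 was 12 without 0 min replicate 1 and 11 without 300 min replicate 1, where 6.98% and 7.35% of all genes were lower. The median difference of the 72 genes was −0.06, beside 0 for all genes and −0.02 for the genes above 4.5. In sign, 45 of the 72 genes lay below 0 (62.5%, against 51% of all genes and 56.1% of those above 4.5). Signals of all 4 late arrays lay below all 4 early arrays for 11 of 72 genes (15.3%, against 5.36% of all genes and 7.44% of those above 4.5). They lay above them for 4 (5.56%, against 3.47% and 4.11%).

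**Figure D2:**
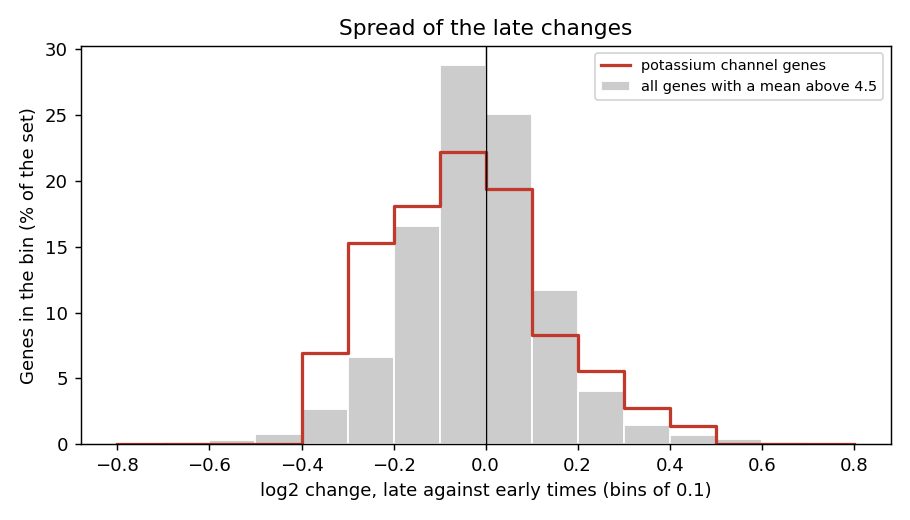
Share of genes (vertical axis, percent of each set) in bins of 0.1 of the log2 difference between late and early times (horizontal axis), for the 72 potassium channel genes (red line) and for all 13407 genes with a mean above 4.5 (grey bars). Of the potassium channel genes 22.2% lay at or below −0.2, against 10.7% of the grey set, and 9.73% lay above 0.2, against 7.08%.

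Kcna1 encodes Kv1.1, a low-threshold delayed rectifier of axons. Its signals were 6.94 and 6.83 at 0 min, 6.87 and 6.95 at 30 min, 7.17 and 7.36 at 180 min and 7.6 and 7.3 at 300 min. The 4 late arrays were all above the 4 early arrays. Signal thus rose 1.38-fold from early to late times (log2 change 0.46 ± 0.09 SE, limma adjusted p = 0.0192), and the difference from 0 min was 0.57 ± 0.13 SE at 300 min (adjusted p = 0.119). The late difference stayed between 0.39 and 0.54 without each array in turn, but its adjusted p exceeded 0.05 without any of the 0 or 30 min arrays, 180 min replicate 2 or 300 min replicate 1, and reached 0.165 when every row of the array was tested.

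Kcna4 encodes Kv1.4, an inactivating subunit that carries A-type current. It read 6.72 and 6.81 at 0 min, 6.42 and 6.29 at 30 min, 6.66 and 7.06 at 180 min and 7.05 and 7.06 at 300 min. Both 30 min arrays were the lowest of the 8, and 180 min replicate 1 lay below both 0 min arrays. Its late rise of 1.32-fold (log2 change 0.4 ± 0.1 SE, limma adjusted p = 0.0498) therefore includes the low 30 min signal. Against 0 min alone the differences were −0.41 ± 0.14 SE at 30 min (adjusted p = 0.849), 0.1 ± 0.14 SE at 180 min and 0.29 ± 0.14 SE at 300 min (adjusted p = 0.572). The call of Kcna4 was lost without each array except 180 min replicate 1, with the replicate block (adjusted p = 0.0529), with median centring (0.0684) and with every row tested (0.235).

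None of the other 4 Kv1 genes passed, and 3 of them lay below 0 at late times. Kcna6, the gene of Kv1.6, read 7.61 and 7.85 at 0 min, 7.53 and 7.6 at 30 min, 7.32 and 7.23 at 180 min and 7.51 and 7.27 at 300 min, with no overlap between late and early arrays (late difference −0.32 ± 0.09 SE, adjusted p = 0.103). Kcna2, the gene of Kv1.2, which joins Kv1.1 in axonal channels, read 7.15 and 6.91 at 0 min and 6.56 and 6.83 at 300 min (late difference −0.27 ± 0.09 SE, adjusted p = 0.173). A second transcript cluster of Kcna2 (mean 5.62) gave −0.29. Kcna3 (0.09) and Kcna10 (−0.06) lay nearer 0, and Kcna10 had a mean of 4.56, close to the limit of 4.5.

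The Kv1 genes thus differed in sign, 3 of 6 lying below 0. In the RefSeq gene order Kcna1 has Kcna5 and Kcna6 as its protein-coding neighbours on chromosome 6, so a gene that rose lies beside one whose late difference was −0.32. On chromosome 3 Kcna3, Kcna2 and Kcna10 follow each other. The mean of Kcna5 was 4.12, below the limit.

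**Figure D3:**
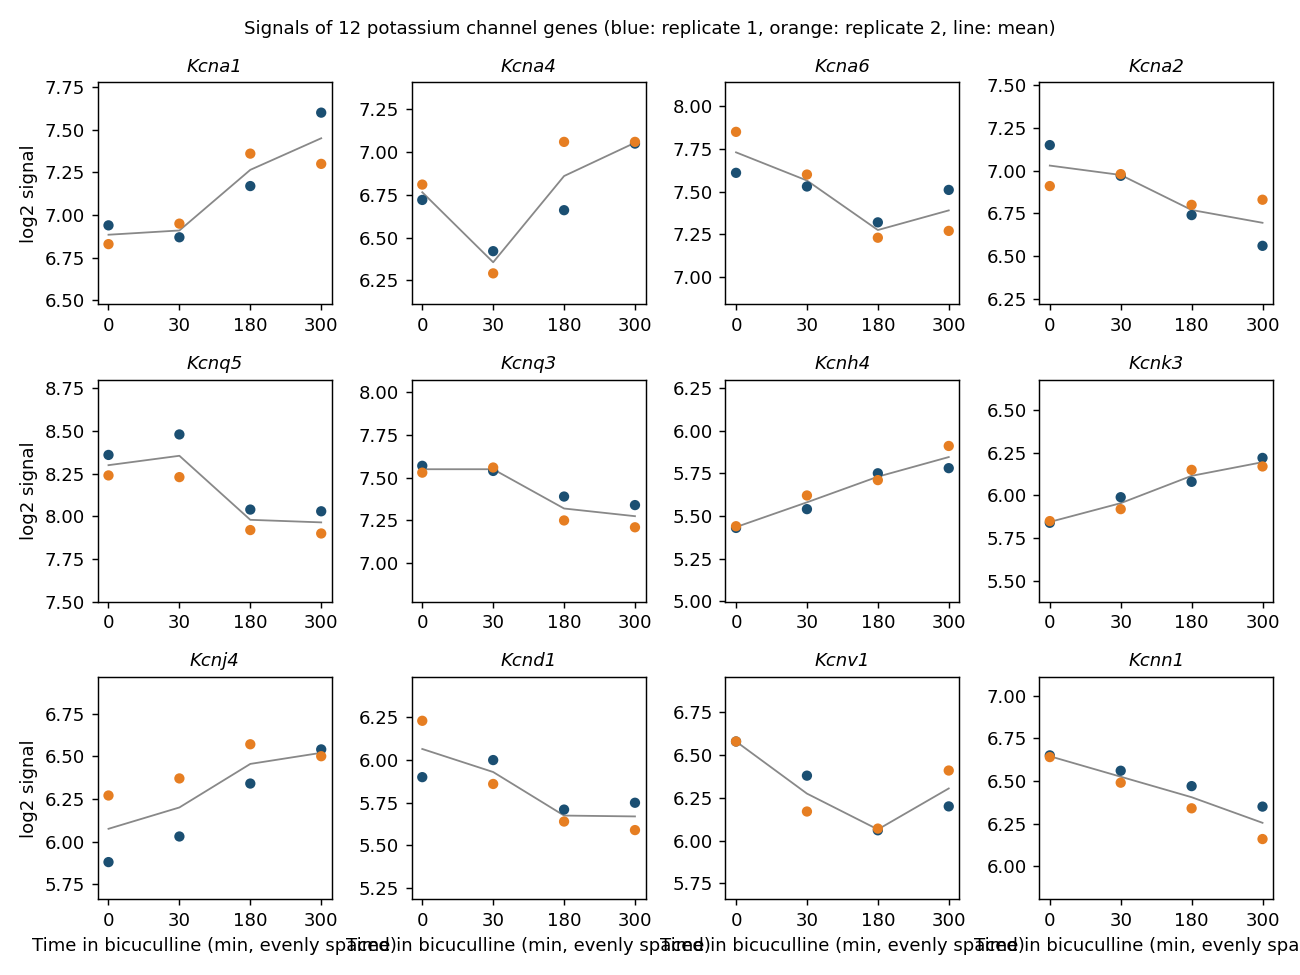
Log2 signal (vertical axis, the same span in every panel) of 12 genes at 0, 30, 180 and 300 min of bicuculline (horizontal axis, evenly spaced), with each array as a point (blue for replicate 1, orange for replicate 2) and the mean of a time joined by a line. Kcna1 climbs from 6.88 at 0 min to 7.45 at 300 min, Kcna4 dips to 6.35 at 30 min, and Kcnq5 steps from 8.36 at 30 min to 7.98 at 180 min.

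The Kv7 genes encode the channels of the M-current, and all 3 measured lay below 0 at late times, under each scaling tried. Of all genes above 4.5, 56.1% lay below 0 in the main fit. Kcnq5 read 8.36 and 8.24 at 0 min, 8.48 and 8.23 at 30 min, 8.04 and 7.92 at 180 min and 8.03 and 7.9 at 300 min. Every late array was below every early one. The late difference was −0.35 ± 0.09 SE (limma adjusted p = 0.0597), and it passed with the replicate block (0.0448), with median centring (0.0464), among genes above 4.5 alone (0.0344) and with a trended, robust prior (0.0201). It did not pass with quantile normalization (0.0874), with averaged clusters (0.0572), with every row tested (0.235) or without any single array (0.0701 to 0.295).

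Kcnq3, which pairs with other Kv7 subunits, read 7.57 and 7.53 at 0 min, 7.54 and 7.56 at 30 min, 7.39 and 7.25 at 180 min and 7.34 and 7.21 at 300 min. The groups did not overlap, and the late difference was −0.25 ± 0.08 SE (adjusted p = 0.154). Kcnq1, better known from heart and epithelia, had a mean of 4.92 and a late difference of −0.09, with overlapping arrays.

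Among the remaining voltage-gated genes, Kcnd1, a Kv4 subunit gene, read 5.9 and 6.23 at 0 min, 6 and 5.86 at 30 min, 5.71 and 5.64 at 180 min and 5.75 and 5.59 at 300 min (late difference −0.32 ± 0.1 SE, adjusted p = 0.105). All 4 late arrays were below the early ones. The main Kv4 genes of hippocampal dendrites and interneurons, Kcnd2 (mean 7.81) and Kcnd3 (7.21), had late differences of −0.1 and 0.01. Kcnb2, the Kv2 gene measured, had −0.31 ± 0.1 SE (adjusted p = 0.122), with 1 late array, 180 min replicate 1 at 6.06, just above 0 min replicate 2 at 6.05. The Kv3 genes of fast-spiking neurons, Kcnc1, Kcnc2 and Kcnc4, lay between −0.14 and 0.05.

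In the EAG-type family 1 of 6 genes lay above 0 and 5 below it at late times, and none passed. With quantile normalization 4 lay below 0. Of all genes above 4.5, 56.1% lay below 0. Kcnh4, the gene of an ELK-type channel, read 5.43 and 5.44 at 0 min, 5.54 and 5.62 at 30 min, 5.75 and 5.71 at 180 min and 5.78 and 5.91 at 300 min. Each later time had a higher mean, and the late difference was 0.28 ± 0.08 SE (adjusted p = 0.108). The other 5 genes of the family lay between −0.12 and −0.01. Of these, Kcnh5 read 5.78 and 5.6 at 180 min and 5.23 and 5.28 at 300 min, and was −0.31 ± 0.12 SE from 0 min at the last time (adjusted p = 0.445). Kcnh3 had a mean signal of 7.56 and a late difference of −0.11, and Kcnh7 a difference of −0.22 at 30 min (adjusted p = 0.965).

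Silent Kv subunits form no channel alone and modify Kv2 channels. At late times 7 of 8 of their genes lay below 0, against 56.1% of all genes above 4.5. Kcng1 read 6.71 and 6.66 at 0 min, 6.71 and 6.75 at 30 min, 6.5 and 6.3 at 180 min and 6.49 and 6.34 at 300 min, with no overlap (late difference −0.3 ± 0.09 SE, limma adjusted p = 0.0995). Kcnv1 read 6.58 on both 0 min arrays, 6.38 and 6.17 at 30 min, 6.06 and 6.07 at 180 min and 6.2 and 6.41 at 300 min. It was below its 0 min signal on all 6 later arrays, by 0.51 ± 0.13 SE at 180 min (adjusted p = 0.115), although 1 array of 300 min stood above both of 30 min. Kcng2 differed by 0.32 ± 0.12 SE at 30 min (adjusted p = 0.897) and by −0.14 at 300 min.

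Calcium- and sodium-activated channel genes showed both signs. Kcnn1, an SK subunit gene, read 6.65 and 6.64 at 0 min, 6.56 and 6.49 at 30 min, 6.47 and 6.34 at 180 min and 6.35 and 6.16 at 300 min. No late array reached an early one, and the difference at 300 min was −0.39 ± 0.12 SE (adjusted p = 0.284). Kcnn2, the SK2 gene of dendritic spines, was higher by 0.31 ± 0.13 SE at 300 min (adjusted p = 0.499), with a late difference of 0.22. Kcnn3 (−0.13), Kcnn4 (0.03) and Kcnma1 (−0.12), the BK pore gene, overlapped between late and early arrays. A second transcript cluster of Kcnma1, dim with a mean of 3.52, gave 0.13. The sodium-activated channel genes Kcnt2 and Kcnt1 differed by −0.19 and 0.16.

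Inward rectifier and K2P genes were likewise split. Kcnj4, the gene of Kir2.3, read 5.88 and 6.27 at 0 min, 6.03 and 6.37 at 30 min, 6.34 and 6.57 at 180 min and 6.54 and 6.5 at 300 min, so the groups overlapped slightly (late difference 0.35 ± 0.11 SE, adjusted p = 0.124). The G-protein-gated channel genes Kcnj3, Kcnj9 and Kcnj6 lay at 0.14, 0.06 and −0.02. Kcnj10, the Kir4.1 gene typical of astrocytes, had a mean of 5.14 and a late difference of −0.11, in cultures whose summed astrocyte markers are given above. The part of those cells in its values was not tested. Kcnj11, the pore gene of ATP-sensitive channels, lay at 0.06.

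Of 12 K2P genes, 7 lay below 0 at late times (against 56.1% of all genes above 4.5), Kcnk6 by less than 2 decimals show. Kcnk2, the TREK-1 gene, read 6.89 and 7.21 at 0 min, 7.15 and 7.21 at 30 min, 7.01 and 6.75 at 180 min and 6.73 and 6.71 at 300 min (late difference −0.32 ± 0.1 SE, adjusted p = 0.12). Its relative Kcnk10 (TREK-2) had −0.28 ± 0.09 SE (adjusted p = 0.147), and Kcnk1 (TWIK-1) had −0.25. The Kcnk2 array of 180 min replicate 1 lay above 0 min replicate 1, so its groups overlapped. Kcnk3, the TASK-1 gene of acid-sensitive leak channels, read 5.84 and 5.85 at 0 min, 5.99 and 5.92 at 30 min, 6.08 and 6.15 at 180 min and 6.22 and 6.17 at 300 min. Its late arrays were all above the early ones, by 0.26 ± 0.08 SE (adjusted p = 0.13), while Kcnk9, the gene of its partner TASK-3, lay at 0.03. Kcnk4, the gene of the mechanosensitive TRAAK channel, differed by −0.17 ± 0.12 SE at 30 min (adjusted p = 0.965).

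Accessory subunit genes lay on both sides of 0, and 0 of 11 passed (limma). Between late and early times 2 had an unadjusted p under 0.05 (18.2%, against 14.3% of all genes and 17.6% of those above 4.5). Kcnab1, a Kv beta gene, differed by −0.4 ± 0.13 SE at 180 min (adjusted p = 0.242), where its arrays read 5.71 and 6.1 against 6.29 and 6.3 at 0 min, so replicate 1 held most of the difference. Its late difference was −0.23, and between −0.32 and −0.13 when arrays were left out. Kcnab3 lay at 0.24 and Kcnab2 at −0.09. The 4 KChIP genes, whose calcium-binding products assist Kv4 channels, lay between −0.12 and 0.15, the BK beta genes Kcnmb4, Kcnmb2 and Kcnmb3 at −0.07, −0.02 and 0.18, and Kcne1l at 0.01.

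**Figure D4:**
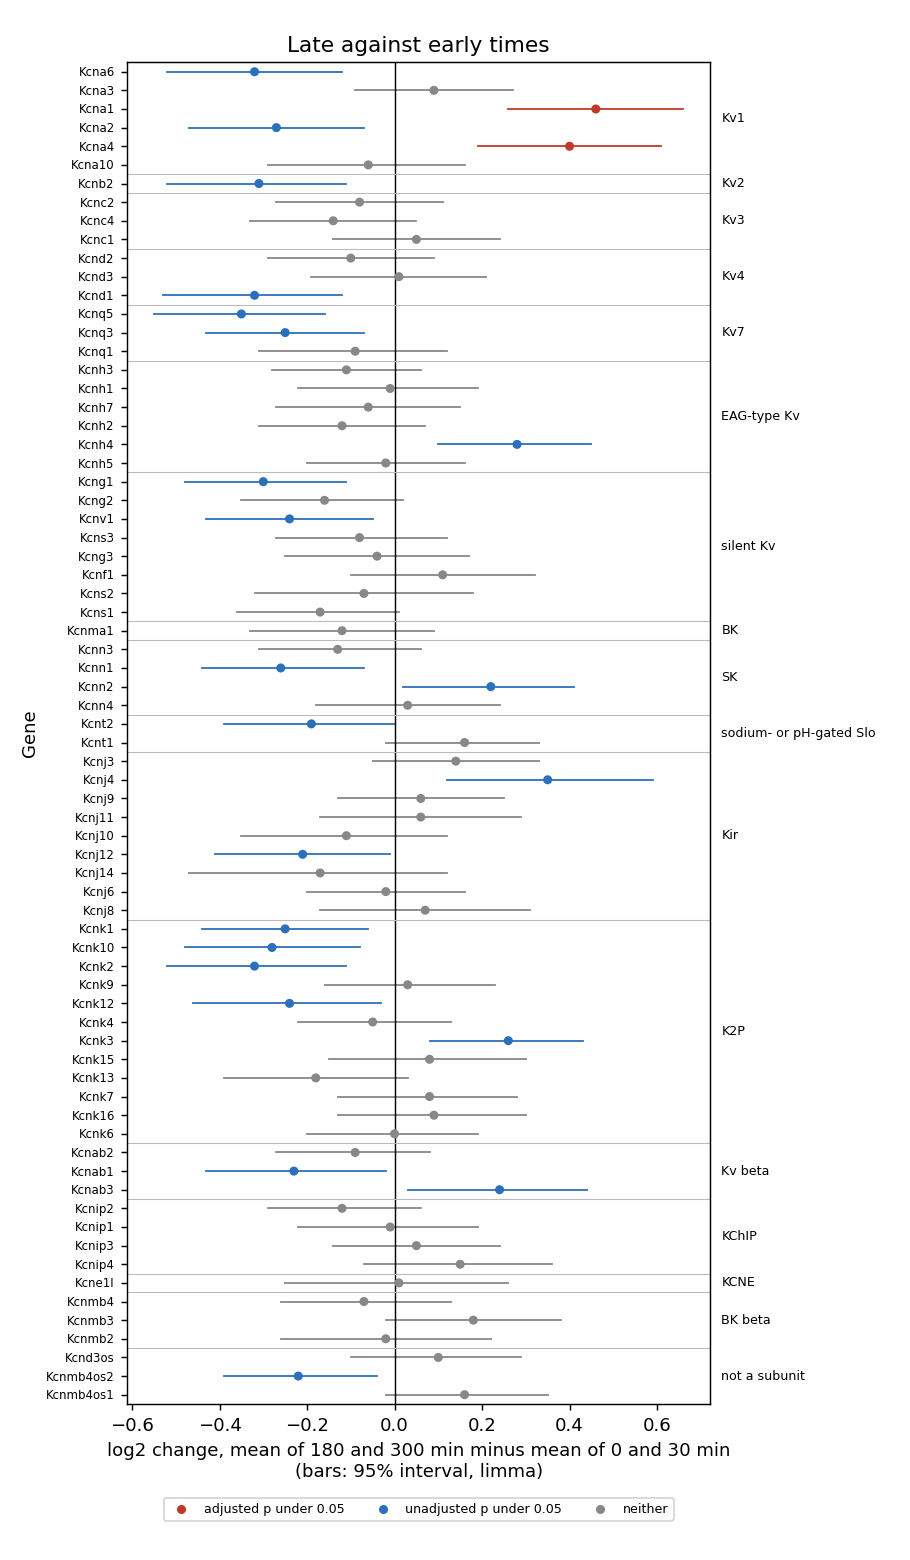
Late minus early log2 difference (horizontal axis) of each of the 72 genes (rows, grouped by family), with its 95% interval from limma as a bar. Red points passed an adjusted p of 0.05 over all genes (Kcna1 and Kcna4), blue points had an unadjusted p under 0.05, and all 3 Kv7 points lie left of 0.

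Of the 3 noncoding genes, 2 had an unadjusted p under 0.05 at 30 min, and the exception was Kcnmb4os1 (−0.04). The share was 5.11% of all genes and 4.59% of those above 4.5. The 2 genes were named because their p was among the 4 smallest of the potassium channel genes higher at 30 min. Kcnd3os, opposite in strand to a Kv4 gene by its name, read 6.42 and 6.47 at 0 min, 6.76 and 6.89 at 30 min, 6.93 and 6.8 at 180 min and 6.74 and 6.48 at 300 min (0.38 ± 0.13 SE at 30 min, adjusted p = 0.853). Kcnmb4os2 read 5.36 and 5.46 at 0 min, 5.82 and 5.72 at 30 min, 5.35 and 5.31 at 180 min and 5.41 and 5.43 at 300 min (0.36 ± 0.12 SE at 30 min, adjusted p = 0.819). Both 30 min arrays were above both 0 min arrays for each gene, and neither passed.

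Of 35 listed genes of proteins that bind, anchor or regulate potassium channels outside the Kcn symbols, 34 were measured. From early to late times 1 of the 34 rose and 1 fell, where 1.2% of all genes were called higher and 1.01% lower. Rgs4, a brake on G-protein signalling to Kir3 channels, rose (log2 change 0.5, limma adjusted p = 0.00847, and 0.71 at 180 min against 0 min, adjusted p = 0.0348). Cntn2, a cell adhesion gene that clusters Kv1 channels along axons, fell by 0.54 (adjusted p = 0.0144). Ank3, the ankyrin G gene that anchors Kv7 channels at the axon initial segment, differed by −0.42 (adjusted p = 0.0742). The Kv4 partner genes Dpp6 and Dpp10 lay at −0.14 and 0, and the sulfonylurea receptor gene Abcc8 at −0.01.

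The genes just inside and just outside the level limit were Kcna10 (4.56), Kcnk6 (4.56) and Kcnj8 (4.57), against Kcna7 (4.48), Kcng4 (4.46) and Kcnj2 (4.45). The potassium channel genes spanned a median of 37.1 kb of genome, against 22 kb for genes above 4.5 (GRCm38.p6). Across the 72 genes, the rank correlation of gene span with the late difference was −0.26, and across all genes above 4.5 with a span it was −0.22. These correlations are descriptions across genes that share the same 8 arrays.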

How the data were processed

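The deposited values were 1 log2 signal per transcript cluster and array. The log base was taken from their range (1.22 to 14.96), and the authors' background correction, probe summary, normalization, software and build are not given in the sources used here. Residual background would shrink the differences of dim genes. Of 35399 rows, 21789 carried 1 gene symbol in the platform annotation, 1621 several and 11989 none. Rows with 1 symbol, 1 cluster per gene, gave 19938 genes. No further normalization was applied.

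A mean for each time was fitted to all 8 arrays with limma 3.58.1 (lmFit, eBayes) in R 4.3.3, with 4 residual degrees of freedom. P-values were two-sided and adjusted by Benjamini and Hochberg's method across the 19938 genes, with a threshold of 0.05, and the fit was tested on simulated data. In simulated comparisons of 180 with 0 min, 96.7% of log2 changes of 1 were called, but only 19.5% of changes of 0.5. A gene not called at a single time may therefore still have changed by about that much. SE is limma's standard error after moderation, on the log2 scale. With 2 arrays a time the precision is limited. The labels do not say whether replicates came from separate dissections, so p-values reflect only how far these 8 arrays vary, which may be technical. Signals of different genes come from different probes, so mean signal was used only to choose genes and order plots, and no level is set against another gene's.

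The genes, families and lists, and the pooling of times, were chosen with earlier results of these data known. Genes were named if they passed, had 1 of the 4 smallest p in a direction, led their family by mean signal or lay next to the limit of 4.5, and other genes of the described families were added after their values were seen, as were the counts at an unadjusted p and the 12 plotted genes. The alternatives were a replicate block, quantile normalization, median centring, every row, genes above 4.5 alone, a trended robust prior, averaged clusters, other level limits, the set without noncoding genes and each array left out.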

Additional observations from a re-analysis of the deposited data

How the results depend on the processing

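With 2 arrays a time, differences of the size seen here mostly stay short of the threshold. The 2 genes called between late and early times became 0 when every row was tested, 3 among genes above 4.5 alone and 3 with a trended, robust prior, with which the test for any difference called 2 (Kcna4 and Kcna1) instead of 0. Leaving out each array in turn gave between 0 and 2 genes called between late and early times (2 without 180 min replicate 1, 1 without 300 min replicate 2 and 0 without each of the others) and between 0 and 1 for any difference. For the 30, 180 and 300 min comparisons, 180 against 30 min and 300 against 180 min, 0 genes were called under each of these alternatives.

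Median centring took the median difference at 180 min from −0.04 to −0.08. Leaving out each array took the medians to between 0 and 0.06 at 30 min, −0.07 and −0.02 at 180 min, −0.06 and −0.01 at 300 min and −0.07 and −0.03 for late against early times. The counts at an unadjusted p under 0.05, an alternative run added after the data were seen, ranged from 11 to 15 genes lower and 5 to 7 higher without each array, where 5.49% to 7.82% of all genes were lower and 4.91% to 6.92% higher. They were 13 and 6 with every row tested (5.35% and 5.4% of all rows) and 19 and 6 with median centring (9.91% and 4.72% of all genes).

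The fit with the replicate block called 2 genes between late and early times, Kcna1 and Kcnq5 in place of Kcna4, and 0 in the other comparisons. The numbers need not pair the samples: the deviations of same-numbered arrays correlated between −0.09 and 0.09. Of 2040 values of named genes under the alternatives, 0 that had passed reversed, 17 lost the call and 4 gained it, all of them in the comparison of late with early times. Only the late differences of Kcna1 and Kcna4 had passed in the main fit, so all 17 losses were theirs. Nearly all of the 2040 values had no call to lose, and their number does not measure how stable those calls are. The 4 gains were all of Kcnq5.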
